A study of Mus musculus with 6 samples.

Results

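Lgals1, Lgals3, Lgals3bp, Lgals8, Lgals9, Vim and Tspo, 7 of the 31053 mouse genes in the count matrix, were followed across the immune cells of brains carrying a human glioma. They were taken by symbol from a list drawn up with earlier results of these data known. The cells were CD45+ cells sorted from the tumor-bearing hemisphere of 6 female SCID mice, a strain without T and B cells of its own, after U87 human glioma cells had been placed in the brain at 50000 cells per mouse. In 3 mice the U87 cells carried human IL-33 and the brains were taken at 3 weeks, and in 3 mice they carried the pcDNA control and the brains were taken at 6 weeks. The labels give an age of 6 to 8 weeks, and the growth protocol an age of 8 weeks at implantation. Both groups bore U87 tumors and no tumor-free brain was analysed here, IL-33 and the time of collection differed together and cannot be told apart, and the graft is 1 human cell line in hosts that keep microglia, NK cells, monocytes and granulocytes. Each cell barcode ended in a suffix from 1 to 6 that stands for a library, but no label or file header ties a suffix to a mouse. Groups were taken from the labels alone, and suffixes were not assigned to mice by matching their barcode numbers with the library sizes that the study lists. IL-33 and pcDNA were therefore not compared, the 6 libraries were read as 1 pooled sample, and no p-value was given.

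Galectins are secreted or cytosolic lectins that bind galactose-containing sugars on glycoproteins. Lgals1 encodes a small galectin that acts as a dimer, Lgals3 a galectin with a long flexible tail that assembles into larger complexes, and Lgals8 and Lgals9 galectins with a sugar-binding domain at each end. Galectin-8 marks damaged endosomes inside cells, and galectin-9 is a ligand of the receptor Tim-3. Lgals3bp encodes a secreted scavenger-receptor glycoprotein that galectins bind. Vim encodes vimentin, the intermediate filament protein of migrating myeloid and mesenchymal cells. Tspo encodes the translocator protein of the outer mitochondrial membrane, whose ligands are used in imaging as markers of glial activation.

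On GRCm38 (the GENCODE M21 annotation), Lgals1 (chr15:78926725-78930465) and Tspo (chr15:83563592-83574203) lie on the plus strand of the same chromosome, and so do Lgals3 (chr14:47367751-47386160) and Vim (chr2:13573927-13582826) on theirs. Lgals3bp (chr11:118392751-118402092), Lgals9 (chr11:78962974-78984946) and Lgals8 (chr13:12439415-12464944) lie on minus strands. All 7 are protein-coding genes. RefSeq promoter windows of GRCm38.p6, 250 bases before to 50 bases after the annotated start, were at hand for 5 of the 7 members, all but Lgals1 and Tspo. The 2 printed here, of Lgals3bp and Lgals9, are the windows of the 5 that held a match to an interferon motif. Both genes were called higher in the interferon gate described below, and so were Vim, whose window held no match, and Tspo, which has no window here. Capitals mark matches on either strand to the interferon-stimulated response element in 2 overlapping spellings, the first GAAA, any 2 bases and GAAA, the second AAA, any 2 bases and GAAAC. Both spellings were chosen after these sequences had been seen. The Lgals3bp window spans chr11:118401910-118402209 and the Lgals9 window chr11:78984875-78985174, both read 5′ to 3′ on the minus strand.
Lgals3bp: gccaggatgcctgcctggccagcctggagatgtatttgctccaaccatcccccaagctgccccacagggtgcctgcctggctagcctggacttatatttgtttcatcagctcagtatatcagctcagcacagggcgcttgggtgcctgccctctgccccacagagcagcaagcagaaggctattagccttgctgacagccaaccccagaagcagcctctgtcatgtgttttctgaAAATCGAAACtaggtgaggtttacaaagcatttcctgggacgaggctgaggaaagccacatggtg
Lgals9: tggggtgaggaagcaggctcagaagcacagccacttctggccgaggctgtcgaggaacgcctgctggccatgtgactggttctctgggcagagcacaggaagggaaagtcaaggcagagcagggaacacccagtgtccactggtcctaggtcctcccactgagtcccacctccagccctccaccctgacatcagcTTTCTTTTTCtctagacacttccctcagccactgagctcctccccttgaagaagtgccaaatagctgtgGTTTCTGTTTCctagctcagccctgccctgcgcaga
The Lgals3bp window held the second spelling on the forward strand, from base -15 to base -6 of the start. The Lgals9 window held the first spelling on the reverse strand from base -55 to -46 and again from base 16 to 25, where the second overlapped it from base 15 to 24. Of 32851 windows of the same length, 3.44% held the first spelling, 2.24% held the second and 4.8% held either. No match to either spelling was present in the Lgals3, Lgals8 and Vim windows. TTCNNNGAA, a STAT dimer spelling that 8.3% of all windows held, matched none of the 5. A match describes letters in the window and not a bound site.

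The matrix held 40411 barcodes and 105560763 UMIs (unique molecular identifiers, each standing for 1 captured RNA molecule). Of these barcodes 38751 passed the filters (more than 200 and at most 2500 genes, under 5% mitochondrial UMIs), and the suffixes held 2879 to 10217 barcodes and 9745192 to 24393841 UMIs each. Cells were grouped by marker genes, none of them a member. Recruited cells numbered 416, made up of 131 NK-gated cells, 52 granulocyte-gated cells, 121 monocyte-gated cells and 112 Cd209a-gated cells, the last a gate for dendritic-cell genes. Cycling microglia numbered 909, with 637 in the S phase gate, 134 in the mitosis gate and 138 in both. Activated microglia numbered 4714, with 2306 in the Ccl2-Ccl12 gate (chemokines), 713 in the Lpl-Fam20c gate (lipid handling and phagocytosis), 610 in the interferon gate, 404 in the MHC class II gate and 681 in several gates. The remaining 30853 microglia, called resting microglia because they passed none of these gates, were the reference. For the recruited gates, genes kept for checking and used in no gate are compared here with resting microglia only. The values do not show that a list was particular to its gate. The NK check list summed to 3849 counts per 1000000 UMIs (CPM) in NK-gated cells against 0.72 in resting microglia, and the granulocyte list to 9182 against 5.09. The monocyte list summed to 2339 against 5.66 and the Cd209a list to 259.7 against 13.6, although Klri1 and Ccr7 of the last were at 0. T cell markers summed to 121 CPM in NK-gated and 222 CPM in granulocyte-gated cells.

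The suffixes were not independent of each other. Of the 40411 barcodes, 14722 (36.4%) carried 1 of 3890 barcode sequences that were found under more than 1 suffix, 20.7% to 51.0% of the barcodes of a suffix. Of 3229 sequences found under 3 or more suffixes, 3149 (97.5%) had the most UMIs under suffix 2. Barcodes with such a shared sequence had a median of 929 UMIs, against 3137 for a sequence found under 1 suffix only, here called an own sequence. Shared sequences made up 5.05% of recruited cells, 8.47% of cycling microglia, 21.0% of activated microglia and 39.4% of resting microglia. In the single microglial gates they ranged from 4.71% in S phase to 71.1% in Lpl-Fam20c. Ratios to resting microglia are therefore given for all cells and, for many of the called members, also for cells of own sequence. Ratios between gates, shares of thinned cells, counts of cells with a pair of genes and correlations between genes are over all cells only. Agreement in direction across suffixes is a description, since the suffixes share barcodes. The source of the shared sequences was not tested.

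**Figure D1:**
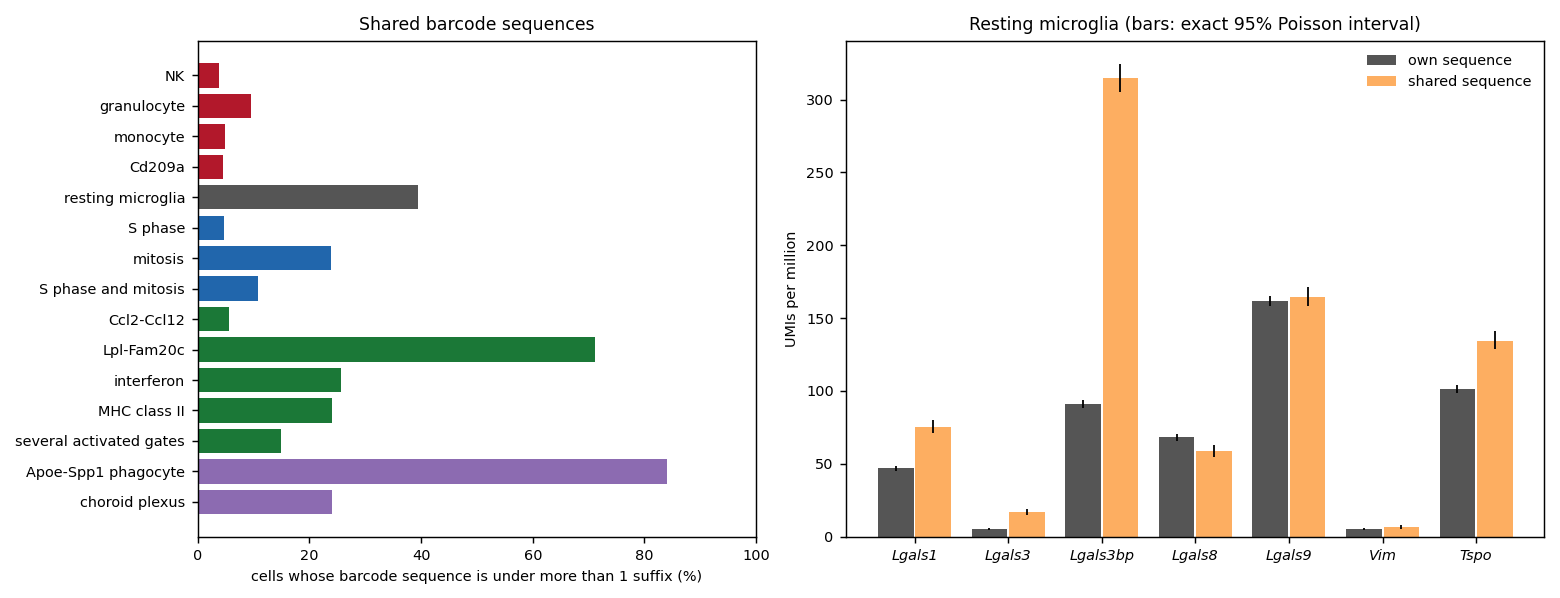
Shared barcode sequences by cell group. The plot gives the percent of cells in each group whose barcode sequence occurs under more than 1 suffix: it was 5.05% in recruited cells, 39.4% in resting microglia and 71.1% in the Lpl-Fam20c gate.

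In resting microglia the members themselves differed between these 2 kinds of barcode. Lgals3bp stood at 315 CPM in shared-sequence cells and 91.0 CPM in own-sequence cells, a ratio of 3.46 (95% interval 3.32 to 3.60). The Lgals3 ratio was 3.25 (16.8 against 5.18 CPM) and the Lgals1 ratio was 1.61 (75.5 against 46.8 CPM). Tspo was at 135 against 101 CPM, Lgals8 at 58.9 against 68.1 CPM and Lgals9 at 165 against 162 CPM. The Vim ratio of 1.20 had an interval that reached below 1 (0.94 to 1.53). The reference for Lgals3bp and Lgals3 thus depended most on which barcodes were kept.

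A level below is the CPM of a group, from its summed UMIs of a gene and of all genes, and a ratio is the level in a group divided by that in resting microglia. Intervals are exact 95% Poisson intervals and cover counting error only. Groups were spread unevenly over the suffixes. Suffix 6 held 168 of the 416 recruited cells and 4329 of the 30853 resting microglia, and suffix 4 held 303 of the 909 cycling microglia and 4450 of the resting microglia. A ratio over all cells therefore also takes in differences in level between suffixes, which the intervals do not cover. A gene was called higher when its ratio was at least 1.5, or lower when it was at most 1/1.5, and the direction was the same in every suffix with at least 20 cells of the group. With own sequences fewer suffixes reached 20 cells in some gates, so a call there needed agreement in fewer of them. Over all resting microglia the levels were 134 CPM for Lgals3bp, 162 for Lgals9, 108 for Tspo, 66.3 for Lgals8, 52.4 for Lgals1, 7.44 for Lgals3 and 5.41 for Vim. Between suffixes they ranged from 156 to 171 for Lgals9 and 60.3 to 69.96 for Lgals8. The range was wider for Lgals3bp (93.4 to 191), Tspo (69.9 to 167), Lgals1 (34.2 to 70.0), Lgals3 (3.44 to 9.97) and Vim (2.91 to 11.6). In the NK and monocyte gates only suffixes 4 and 6 held 20 cells, and in the mitosis and Cd209a gates only suffixes 4, 5 and 6. A call in these gates covers those suffixes alone, and if their mice belonged to 1 treatment group it would cover that group alone, which was not tested. As these are summed levels, fewer cells and less RNA per cell cannot be told apart in them.

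In recruited cells Vim, Lgals3, Lgals1 and Tspo were all far above resting microglia, while Lgals3bp was below. That made 4 members called higher, against 37% of the 3556 genes with at least 50 CPM in either group, and 1 called lower, against 24.9% of them. All 7 members passed that limit, but Vim and Lgals3 passed it only through the recruited cells, so their being higher was fixed by the limit. Recruited cells differed from microglia in most of what they express, so these counts are a description. Median depth was 3519 UMIs per recruited cell and 2286 per resting microglial cell, and the microglial genes used as a purity limit made up a median of 0.053% and 4.24% of the UMIs.

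Vim, the vimentin gene, was at 949 CPM in suffix 2, 2164 in suffix 4, 1988 in suffix 5 and 2359 in suffix 6, the suffixes with at least 20 recruited cells. Suffix 2 was the lowest, with 40 cells, and even there the level was 204 times that of its own resting microglia. In suffix 6, with 168 recruited cells, resting microglia were at 11.6 CPM, against 2.91 to 5.91 CPM in the other suffixes. The ratios within suffixes 2 and 6 were thus both below the ratio over all cells. Over all recruited cells Vim was at 2105 CPM, a ratio of 389 (350.1 to 434), or 412 with own sequences. These 416 cells, 1.07% of those passing the filters, held 64.9% of the Vim UMIs of all passing cells. The Cd209a-gated cells were the highest at 3122 CPM, followed by monocyte-gated cells at 1940 CPM, NK-gated cells at 532 CPM and granulocyte-gated cells at 427 CPM. Cd209a-gated cells exceeded monocyte-gated cells by 1.61 times (1.49 to 1.74), whereas the intervals of NK-gated and granulocyte-gated cells overlapped (446 to 629 and 276 to 629.8 CPM).

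Lgals3, the galectin-3 gene, was at 2239 CPM in suffix 2, 1838 in suffix 4, 2145 in suffix 5 and 2152 in suffix 6, a narrower range than that of Vim. Its level over all recruited cells was 2056 CPM, a ratio of 276 (252 to 304), or 403 with own sequences, where the reference was lower. Recruited cells held 55.2% of its UMIs. Monocyte-gated cells (2501 CPM) and Cd209a-gated cells (2337 CPM) could not be separated, with a Cd209a to monocyte ratio of 0.93 (0.87 to 1.01). Granulocyte-gated cells followed at 1877 CPM and NK-gated cells were lowest at 540 CPM, so that monocyte-gated cells held 4.63 times (3.89 to 5.56) the level of NK-gated cells.

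The order was different for Lgals1, the galectin-1 gene. NK-gated cells were at 2664 CPM, Cd209a-gated cells at 2398 CPM and monocyte-gated cells at 1373 CPM. Cd209a-gated cells held 1.75 times (1.60 to 1.91) the level of monocyte-gated cells, and 0.90 times (0.82 to 0.99) that of NK-gated cells. In the granulocyte-gated cells a single Lgals1 UMI was counted (17.1 CPM, ratio 0.33, 0.01 to 1.82), in cells with a median of 853.5 UMIs. By suffix the recruited level was 1413, 1704, 2287 and 2216 CPM in suffixes 2, 4, 5 and 6. The ratio over all recruited cells was 37.5 (35.7 to 39.4), and 42.5 with own sequences.

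Tspo, the mitochondrial translocator gene, was at 1434, 1238, 1020.3 and 1170.1 CPM in suffixes 2, 4, 5 and 6, with suffix 2 the highest. Over all recruited cells it stood at 1186 CPM, a ratio of 11.02 (10.4 to 11.6), or 11.7 with own sequences. The myeloid gates lay close together, at 1339 CPM in monocyte-gated, 1278 CPM in Cd209a-gated and 1229 CPM in granulocyte-gated cells, and the Cd209a to monocyte ratio of 0.95 had an interval of 0.86 to 1.06. NK-gated cells held 649 CPM, below monocyte-gated cells by a monocyte to NK ratio of 2.06 (1.74 to 2.46).

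Lgals3bp ran the other way. It was at 41.3, 64.8, 26.2 and 46.7 CPM in suffixes 2, 4, 5 and 6, each below the resting microglia of its suffix. Over all recruited cells its level was 49.3 CPM, a ratio of 0.37 (0.29 to 0.46). With own sequences the ratio was 0.52, as the resting level there was 91.0 CPM. Lgals9 had a ratio of 0.48 (0.40 to 0.58) and was not called over the sum of recruited cells, since it was lower in 3 of 4 suffixes and stood at 175 CPM in suffix 2. Lgals8 had a ratio of 1.05 (0.85 to 1.28) and was not called. Within single gates, whose limit Vim and Lgals3 again passed only through the gate, 6 of 7 members were called in NK-gated cells against 69.7% of genes, 6 in monocyte-gated cells against 66.6% and 6 in Cd209a-gated cells against 67.2%, each time the same 4 higher and Lgals3bp and Lgals9 lower. The Lgals9 ratios were 0.51, 0.64 and 0.35 in that order, and those of Lgals8, not called, were 0.71, 1.20 and 1.10. In monocyte-gated cells Lgals9 was not called with 1 more gene in every gate (0.68) or without suffix 6 (0.72). Nor was it with CPM that left out ribosomal protein and mitochondrial genes (0.73). With own sequences the same 6 members were called in each of these gates. In NK-gated cells the Lgals3bp ratio was then 0.59 on 13 UMIs, with an interval that included 1 (0.31 to 1.01). Over all NK-gated cells it was 0.47. At a microglial RNA limit of 3% it was 0.77, and with no such limit 0.89, and it was not called in either case. With no limit Lgals9 was not called in NK-gated cells either (0.68). No suffix had 20 granulocyte-gated cells, so none of their values could be called, and there Lgals3bp rested on 1 UMI, Lgals9 on 2 and Lgals8 on 3.

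**Figure D2:**
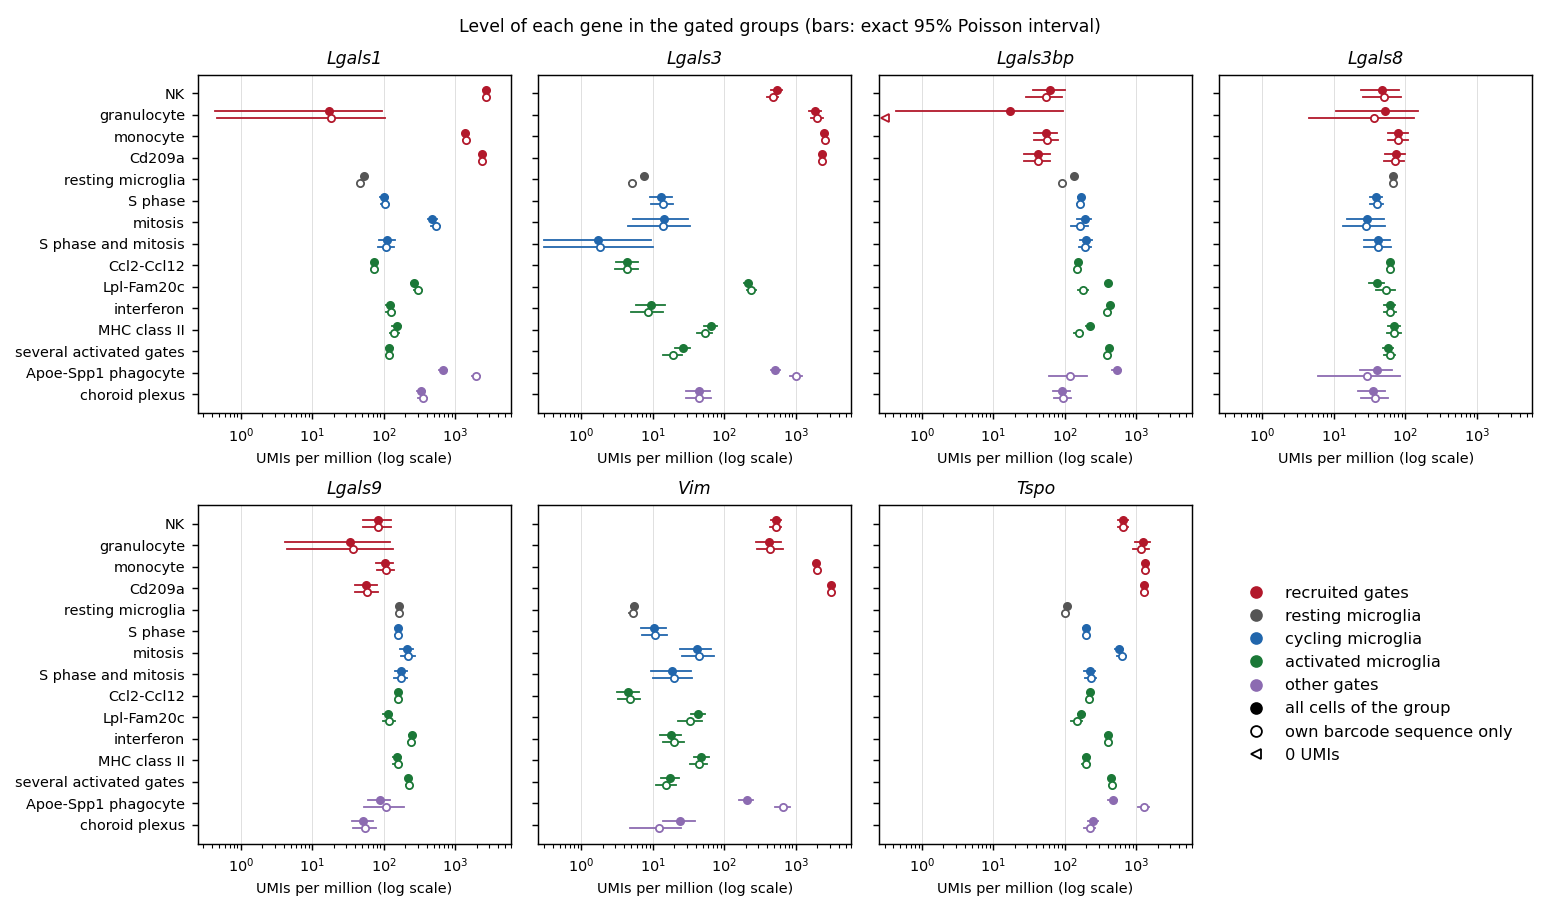
Level of each member by cell group. Points are CPM on a log axis with exact 95% Poisson intervals, filled for all cells and open for cells of own sequence. Over all cells Vim reaches 3122 CPM in Cd209a-gated cells against 5.41 CPM in resting microglia. Lgals3bp is lower in monocyte-gated cells (54.8 CPM) than in resting microglia (134 CPM).

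Shares of cells were compared after each cell had been thinned to 500 UMIs, which every passing cell had. Vim was then seen in 71.4% of Cd209a-gated, 54.5% of monocyte-gated and 19.1% of NK-gated cells, against 0.23% of resting microglia. Lgals3 was seen in 64.5% of monocyte-gated, 59.8% of Cd209a-gated and 26.9% of granulocyte-gated cells, against 0.389% of resting microglia. For Lgals1 the shares were 61.1% in NK-gated, 58.0% in Cd209a-gated and 40.5% in monocyte-gated cells, against 2.51% in resting microglia. No gated cell type is known to lack these genes, so no background share was set. Choroid plexus-gated cells, which are epithelial, showed Vim in 1.88%, Lgals3 in 1.504%, Lgals1 in 12.4% and Tspo in 13.9% of cells at the same depth. Their Lgals1 level was 335 CPM (ratio 6.41, 5.57 to 7.34), or 349 CPM (303 to 401) with own sequences. It was above that of activated microglia as a whole (117 CPM, own sequences 109 CPM). With own sequences the Lpl-Fam20c gate was at 305 CPM (269 to 344), an interval that overlapped that of choroid plexus-gated cells. In choroid plexus-gated cells Lgals3 was at 43.8 CPM and Vim at 24.2 CPM (16 UMIs). Both were called higher, like Lgals1, although Vim was not with own sequences (2.32). With own sequences 23.3% of 3265 genes with at least 50 CPM in either group were called higher there, and 40.2% lower. Lgals3 and Vim did not reach that limit, and Lgals1 passed it only through this gate. The share over all choroid plexus-gated cells was not computed. Tspo was at 246 CPM, Lgals3bp at 90.7 CPM, Lgals9 at 51.4 CPM and Lgals8 at 34.8 CPM. In untouched counts Lgals3 and Vim were found together in 110 of 121 monocyte-gated cells (90.9%) and in 105 of 112 Cd209a-gated cells (93.8%). The corresponding figure was 30 of 131 NK-gated cells (22.9%), where Lgals1 and Vim were together in 59 (45.0%). In resting microglia Lgals3 and Vim were together in 29 of 30853 cells (0.094%). These pair counts were not thinned, and depth differed between the gates. Median depth was 4337 UMIs in monocyte-gated cells, 5216.5 in Cd209a-gated cells, 1765 in NK-gated cells and 2286 in resting microglia.

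**Figure D3:**
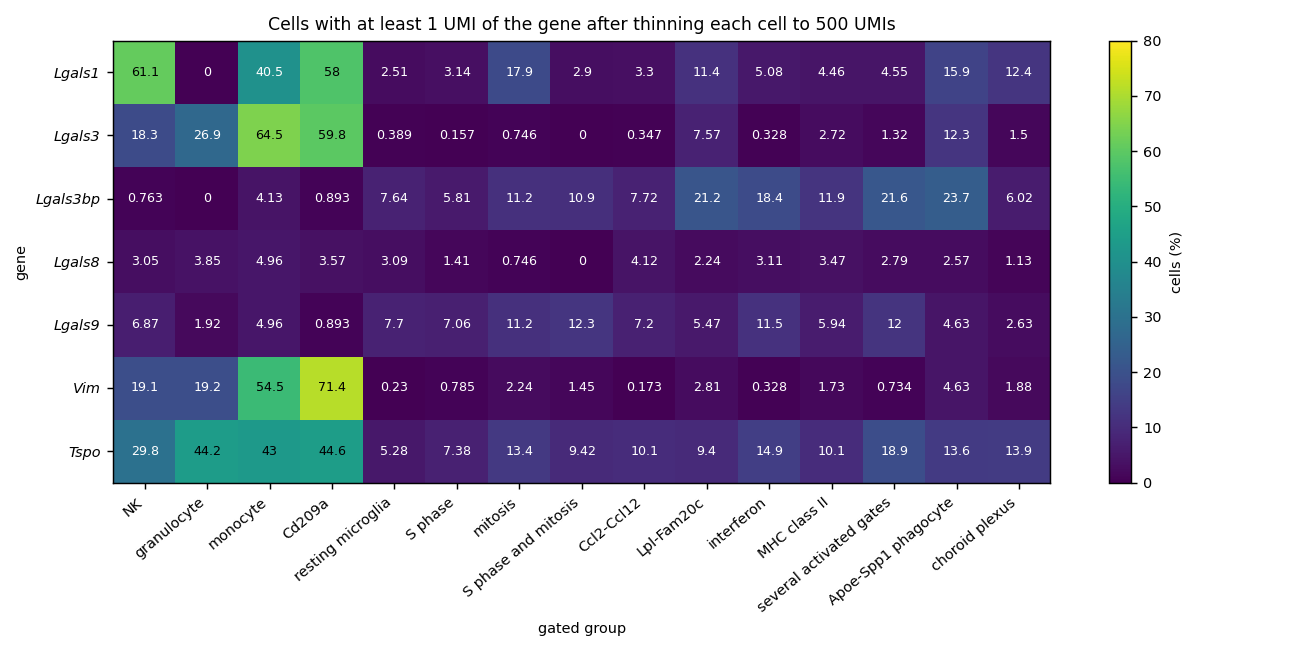
Percent of cells with at least 1 UMI of a member after thinning every cell to 500 UMIs, shown by color and printed for each gene and gated group. Vim was seen in 71.4% of Cd209a-gated cells and in 0.23% of resting microglia.

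In cycling microglia Lgals1 and Tspo were higher and Lgals8 was lower than in resting microglia. The 2 members called higher stand against 14.5% of 3160 genes with at least 50 CPM, and the 1 called lower against 3.2%, and 5 of the 7 members passed that limit. Lgals1 ranged from 56.8 to 204 CPM between the 6 suffixes with a median of 132 CPM, and over all cycling cells it was at 147 CPM, a ratio of 2.81 (2.56 to 3.08). Tspo ranged from 82.6 to 323 CPM with a median of 234 CPM, and its ratio was 2.28 (2.12 to 2.44). Lgals8 was lower than resting microglia in all 6 suffixes, with a level of 38.3 CPM and a ratio of 0.58 (0.48 to 0.68). With own sequences these ratios were 3.21, 2.47 and 0.57. Vim (15.4 CPM, ratio 2.84, higher in 4 of 6 suffixes), Lgals3 (11.5 CPM, 1.54, higher in 3), Lgals3bp (175 CPM, 1.30) and Lgals9 (168 CPM, 1.03) were not called. The Tspo call depended on which cells were kept. Without cells that also passed an activated gate its ratio was 1.72, and without cells holding a UMI of a recruited gate list it was 2.12, and in both cases the direction was not the same in every suffix and Tspo was not called. Lgals1 (2.46 and 2.51) and Lgals8 (0.55 and 0.62) were called in both.

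The Lgals1 and Tspo levels were highest in the mitosis gate. In suffixes 4, 5 and 6, which had at least 20 such cells, Lgals1 was at 483, 362 and 567.5 CPM, and each value was above every suffix of resting microglia. Over the 134 cells it was at 481 CPM, a ratio of 9.19 (7.93 to 10.6), or 11.4 with own sequences. Tspo was at 679.9, 493 and 529 CPM in the same suffixes, with a ratio of 5.31 (4.64 to 6.04), or 6.14 with own sequences. Vim was at 60.4, 29.0 and 38.5 CPM, again above every suffix of resting microglia, although its ratio of 7.60 (4.38 to 12.3) rested on 17 UMIs. Lgals8 was lower, with 12 UMIs and a ratio of 0.44 (0.23 to 0.77). Of the members past 50 CPM in either group 3 were called there, Lgals1, Tspo and Lgals8, against 30.8% of genes, and Vim was called below that limit. Lgals3 (ratio 1.95, 0.71 to 4.27), Lgals3bp (1.40, 1.11 to 1.75) and Lgals9 (1.30, 1.04 to 1.60) were not called over all cells. With own sequences Lgals3bp (1.78, 1.35 to 2.31) was called higher, and so was Lgals3 on 5 UMIs (2.70, 0.87 to 6.37). Only 2 suffixes then held 20 such cells, so these calls needed agreement in fewer suffixes. Compared with the S phase gate the mitosis gate held 4.73 times (3.91 to 5.71) the Lgals1 level, 2.88 times (2.46 to 3.37) the Tspo level and 3.94 times (2.01 to 7.49) the Vim level.

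Markers of recruited cells moved with the mitosis gate. The granulocyte gate list summed to 206 CPM there, from 9.62 to 619 CPM between suffixes with UMIs for 3 of its 10 genes, against 9.18 CPM in resting microglia. The monocyte gate list summed to 172 CPM, from 116 to 234 CPM with 4 of 7 genes detected and Ly6c2, Chil3 and Vcan at 0, against 26.9 CPM. Without any cell holding a UMI of a recruited gate list, on either side of the comparison, the mitosis ratios were 9.21 for Lgals1, 5.09 for Tspo and 9.34 for Vim, and all 3 were still called. In the S phase gate 2 members were called against 11.7% of genes, namely Tspo at 198 CPM (ratio 1.84, 1.68 to 2.01) and Lgals8 at 39.1 CPM (ratio 0.59, 0.48 to 0.72). Tspo was not called there without cells that also passed an activated gate (1.36) or without cells holding a UMI of a recruited gate list (1.81). Nor was it with the mean of per-cell CPM (1.71). Lgals8 was not called with 1 fewer gene in every gate (0.71). Lgals1 had a ratio of 1.94 in S phase but was higher in 5 of 6 suffixes only, and was not called. Lgals3 (1.77), Lgals3bp (1.251), Lgals9 (0.98) and Vim (1.93) were not called either. In cells past both gates 2 members past the limit were called against 37.5% of genes. Lgals1 (ratio 2.13) and Tspo (ratio 2.07) were higher, and below the limit Lgals3 was called lower on 1 UMI (ratio 0.23, 0.01 to 1.29), an interval that includes 1. Lgals3bp (1.47), Lgals8 (0.62), Lgals9 (1.09) and Vim (3.49) were not called, but with own sequences Lgals3bp was (2.10, 1.72 to 2.55). That call needed agreement in 4 suffixes, against 5 over all cells.

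In activated microglia Lgals1, Lgals3, Lgals3bp, Vim and Tspo were higher than in resting microglia. Of the 5 members with at least 50 CPM in either group, 3 were called higher, Lgals1, Lgals3bp and Tspo, against 3.69% of 2819 such genes, and none was lower, against 1.06%. Lgals3 and Vim were called below that limit. These directions held in all 6 suffixes. Tspo ranged from 156 to 425 CPM between suffixes, and its ratio was 2.57 (2.48 to 2.67). Lgals3bp ranged from 193 to 329.9 CPM with a ratio of 2.00 (1.93 to 2.07), and Lgals1 from 48.9 to 185 CPM with a ratio of 2.23 (2.11 to 2.36). Lgals3 (38.01 CPM, ratio 5.11) and Vim (16.9 CPM, ratio 3.12) had higher ratios at low levels. With own sequences the ratios were 2.78 for Tspo, 2.48 for Lgals3bp, 2.34 for Lgals1, 5.15 for Lgals3 and 2.72 for Vim. Lgals8 (0.89) and Lgals9 (1.08) were not called. Markers of monocytes moved with the activated cells: the monocyte gate list summed to 86.3 CPM, 43.1 to 129 CPM between suffixes with all 7 genes detected, against 26.9 CPM (16.6 to 37.3) in resting microglia. Without cells holding a UMI of a recruited gate list, on either side, the ratios were 5.42 for Lgals3, 3.04 for Vim, 2.03 for Lgals1, 1.83 for Lgals3bp and 2.35 for Tspo, and these 5 were still called. The gates differed in which members made up this pattern.

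The Ccl2-Ccl12 gate had 1 member called, against 2.46% of genes. This was Tspo, at 224 CPM with a range of 121 to 359.7 CPM between suffixes and a ratio of 2.08 (1.97 to 2.19), or 2.19 with own sequences. Lgals3 stood at 4.41 CPM and Vim at 4.54 CPM there, ratios of 0.59 (0.41 to 0.84) and 0.84 (0.58 to 1.19). With own sequences the Lgals3 ratio was 0.84 (0.56 to 1.21) and the Vim ratio 0.91 (0.62 to 1.30). Both intervals then included 1, and neither gene was called in either set of cells. Lgals1 (1.41), Lgals8 (0.93) and Lgals9 (0.97) were not called. Lgals3bp had a ratio of 1.12 (1.06 to 1.19) over all cells. With own sequences it was 1.62 (1.51 to 1.73) and was called higher, so this member depended on the barcodes kept.

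The Lpl-Fam20c gate, whose genes include Gpnmb, Spp1 and Itgax of phagocytic microglia, had 5 members past 50 CPM called, against 17% of genes, and Vim called below that limit. Of the 5, Lgals3 passed the limit only through the gate. It had a lowest, median and highest suffix level of 149, 208 and 461 CPM, the last in suffix 3, and all were above every suffix of resting microglia. Its ratio was 28.4 (24.9 to 32.5). Lgals1 was at 196, 247 and 297 CPM in the lowest, median and highest suffix, with a ratio of 5.05 (4.58 to 5.56). Vim was at 14.0, 41.0 and 70.4 CPM with a ratio of 7.93 (6.13 to 10.1). Shared sequences made up 71.1% of this gate, and in the 206 cells of own sequence Lgals3 was at 239 CPM (ratio 46.1, 38.4 to 55.2), Lgals1 at 305 CPM (ratio 6.50) and Vim at 33.5 CPM (ratio 6.43), so these calls did not need the shared cells. Lgals3bp was at 408 CPM (ratio 3.03) over all cells but at 182 CPM (ratio 2.00) with own sequences. Tspo (1.58, own sequences 1.45) and Lgals8 (0.60, own sequences 0.78) were called over all cells and not with own sequences. Lgals9, at 114 CPM with a ratio of 0.70 (0.61 to 0.80), was not called. Lgals3 and Vim were seen together in 24 of the 713 cells (3.37%), and Vim without Lgals3 in 26. Lgals1 and Lgals3 were together in 83 (11.6%), and Lgals1 without Lgals3 in 167. Lgals1 was detected in more cells than Vim, so the shares do not show which pair goes together more closely.

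The interferon gate had Lgals3bp, Lgals9 and Tspo called higher, 3 members past 50 CPM against 5.97% of genes, and Vim called below that limit. Lgals3bp was at 339, 421 and 473 CPM in the lowest, median and highest suffix, all above every suffix of resting microglia. Its ratio was 3.18 (2.96 to 3.40), and 4.27 (3.95 to 4.62) with own sequences. Lgals9 was at 210.2, 269 and 385 CPM, again without overlap with resting microglia. Its ratio of 1.54 (1.41 to 1.68) lay close to the threshold of 1.5. It was 1.51 with own sequences, and without suffix 1 (1.497) or without suffix 3 (1.48) it was not called. Nor was Lgals9 called with 1 fewer gene in every gate (1.38) or with no upper limit on genes per cell (1.46). Without cells holding a UMI of a recruited gate list its ratio was 1.40, and it was not called. Tspo was at 222, 313 and 611 CPM with a ratio of 3.69 (3.43 to 3.96), or 4.03 with own sequences. Vim was called on 37 UMIs, with a ratio of 3.28 (2.28 to 4.603). The call was not made with 1 fewer gene in every gate (2.31), with no upper limit on genes per cell (3.15), with the mean of per-cell CPM (2.60) or without cells holding a UMI of a recruited gate list (3.66). In thinned cells Vim was seen in 0.328% of this gate, against 0.23% of resting microglia and 1.88% of choroid plexus-gated cells. The monocyte gate list summed to 131 CPM in the gate. Lgals1 had a ratio of 2.31 but was higher in 4 of 6 suffixes, from 15.4 to 188 CPM, and was not called, nor were Lgals3 (1.29) and Lgals8 (0.92). Lgals3bp and Lgals9 were found together in 225 of the 610 cells (36.9%), against 2268 of 30853 resting microglia (7.35%), at median depths of 3522.5 and 2286 UMIs. Lgals3bp was found without Lgals9 in 170 and Lgals9 without Lgals3bp in 90 of the 610 cells, against 4672 and 6784 resting microglia. Each gene was thus detected more often in the gate, and the pair shares alone do not show that they go together.

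The MHC class II gate had 3 members called against 2.69% of genes, with Lgals3 past the limit only through the gate, and it was unevenly made up, with 218 of 404 cells from suffix 1. Lgals3 had a ratio of 8.75 (6.96 to 10.9), from 12.8 to 271 CPM between suffixes. Tspo had a ratio of 1.87 (1.66 to 2.10) and Lgals3bp one of 1.66 (1.48 to 1.85), the latter 1.48 and not called without suffix 2. Lgals1 (21.0 to 581 CPM, ratio 2.89) and Vim (3.50 to 241 CPM, ratio 8.88) were below resting microglia in 1 of 5 suffixes, and were not called, nor were Lgals8 (1.05) and Lgals9 (0.95). Without suffix 1 the ratios were 6.03 for Lgals1, 17.8 for Lgals3 and 19.4 for Vim. With own sequences they were 10.3 for Lgals3, 1.94 for Tspo, 1.71 for Lgals3bp and 8.57 for Vim, all called higher. Markers of recruited cells moved with them. In this gate the monocyte gate list summed to 205 CPM, 29.2 to 825 CPM between suffixes with Vcan at 0 and 6 of 7 genes detected, and the Cd209a gate list to 133 CPM, 10.5 to 622 CPM with all 6 detected. Without cells holding a UMI of a recruited gate list, the Lgals1 ratio was 1.21, the Lgals3 ratio 3.46 and the Vim ratio 3.80, and none of these was called.

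Cells in several activated gates had 2 members past 50 CPM called, Tspo and Lgals3bp, against 14.4% of genes, and Lgals3 and Vim called below that limit. Tspo was at 444 CPM (ratio 4.13, 3.88 to 4.39), Lgals3bp at 411 CPM (ratio 3.06, 2.88 to 3.26), Lgals3 at 26.1 CPM (ratio 3.51) and Vim at 17.4 CPM (ratio 3.22). With own sequences these ratios were 4.47, 4.26, 3.69 and 2.99. The Lgals9 ratio of 1.35 (1.24 to 1.47) was below the threshold although the gene was higher in all 5 suffixes, and Lgals1 (2.29, higher in 3 of 5 suffixes) and Lgals8 (0.86) were not called. The monocyte gate list summed to 164 CPM, with Chil3 and Vcan at 0.

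**Figure D4:**
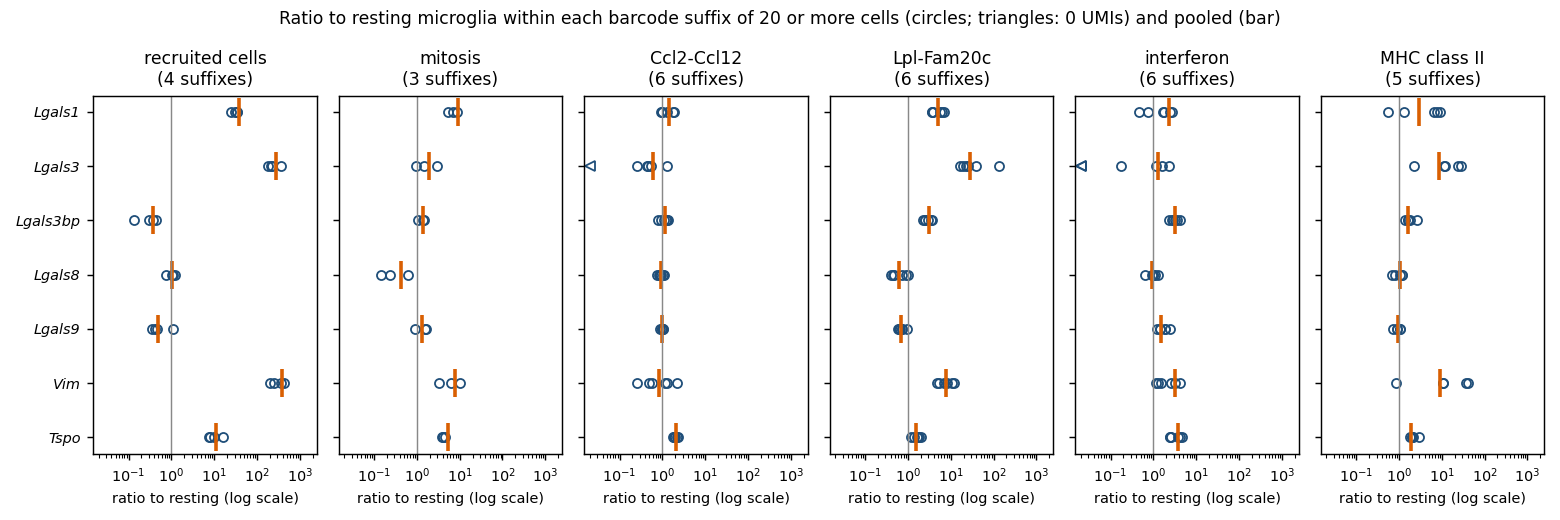
Ratio of each member to resting microglia within each suffix, on a log axis, for the groups compared. Each point is a suffix with at least 20 cells of the group, a triangle at the left edge a suffix with no UMI, and each bar the ratio over all suffixes. Lgals3 in the Lpl-Fam20c gate and Lgals3bp in the interferon gate lie to the right of 1 in all 6 suffixes.

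Apoe-Spp1 phagocytes, 389 cells that failed the microglia gate, carried Spp1 and had at least 1% of their UMIs from Apoe, depended most on the shared sequences, which made up 84.1% of them. Over all 389 cells Lgals3 was at 521 CPM (ratio 70.0), Lgals1 at 676 CPM (12.9), Vim at 205 CPM (37.97), Tspo at 468 CPM (4.35) and Lgals3bp at 531 CPM (3.95), while Lgals9 was lower (0.54) and Lgals8, at 0.60, was not called. Of 6179 genes with at least 20 CPM in either group, 444 were called higher and 669 lower. Lgals3 and Vim passed that limit only through the phagocytes. In the 62 cells of own sequence Lgals1 was at 1957 CPM (ratio 41.8, 36.0 to 48.3), Tspo at 1265 CPM (12.5), Lgals3 at 1003 CPM (193) and Vim at 662 CPM (127). Lgals3bp was at 117 CPM (1.28, 0.66 to 2.24) and Lgals9 had a ratio of 0.66, and neither was called, while Lgals8 was called lower on 3 UMIs (0.43). With own sequences 56.1% of 3340 genes with at least 50 CPM in either group were called, on 2 suffixes. The monocyte gate list summed to 829 CPM in the 389 cells, 63.0 to 1676 CPM between suffixes with 6 of 7 genes detected and Ly6c2 at 0. Its part in these levels was not tested.

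Genes that work with the members were read from lists, by the same call but over genes with at least 20 CPM in either group. That call took in 28.3% of 6394 genes as higher and 24.6% as lower in recruited cells, 13.7% and 2.85% in cycling microglia, and 3.29% and 0.952% in activated microglia. Other galectin genes gave nothing to compare, since 4 of 5 were in the matrix and 0 reached 20 CPM in these comparisons. Of 13 genes for glycoproteins and receptors that bind galectins, 12 passed in recruited cells, 4 higher and 7 lower, and the median log2 ratio was -0.70 against 0.16 over all genes. Cd44, the hyaluronan receptor, was at 193 against 1.78 CPM (ratio 108), and Spn, the sialoglycoprotein CD43, at 59.8 against 0.29 CPM (ratio 204). Both passed 20 CPM only through the recruited cells. Cd47 (4.26) and Ptprc, which encodes CD45 (1.72), were also higher. Havcr2, the gene of the galectin-9 receptor Tim-3, was lower at 52.8 against 175 CPM (ratio 0.30). Trem2 (0.03) and Mertk (0.01), microglial phagocytic receptors, were lower as well, with Itgam (0.53), Lamp1 (0.59), Lamp2 (0.65) and Tlr4 (0.43). With own sequences the calls were 4 higher and 6 lower, without Lamp2. In cycling microglia 0 of 10 were higher and 2, Havcr2 (0.59) and Tlr4 (0.64), were lower, and with own sequences Tlr4 alone was. No gene of the list was called in activated microglia. In the mitosis gate Spn was higher (21.8 CPM), passing only through the gate, and Havcr2 (0.57) and Mertk (0.44) were lower.

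Of 9 genes of glycan synthesis, which build the sugars galectins bind, 6 passed in recruited cells. St3gal4, a sialyltransferase, was higher (ratio 10.3), while the N-glycan branching genes Mgat1 (0.48) and Mgat4a (0.19), the galactosyltransferase B4galt1 (0.36) and the sialyltransferase St3gal6 (0.15) were lower. In cycling microglia 1 of 7 was called, Mgat5 at a ratio of 1.54, which was not called with own sequences. Mgat5 passed 20 CPM only through the cycling cells. No gene of this list was called among 6 in activated microglia. In the mitosis gate Mgat2 (1.64) was higher and St3gal4 (0.24) and St3gal6 (0.58) were lower, and in the Lpl-Fam20c gate Mgat1 (0.60) and St3gal6 (0.60) were lower.

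Of the 15 genes of the cortical cytoskeleton and its membrane contacts, 11 passed 20 CPM only through the recruited cells, where they had to be higher. The other 4, Anxa5, Tagln2, Tmsb10 and Msn, passed in resting microglia too and were called higher. Among the 11, S100a6 was at 2585 against 5.27 CPM, S100a4 at 922 against 3.02 CPM and Anxa2, an annexin that binds S100a10, at 1149.7 against 1.84 CPM. Msn, the moesin gene, had a ratio of 2.20. Of 8 intermediate filament genes 3 passed, again only through the recruited cells, Lmna (10.9), Lmnb1 (10.9) and the linker Plec (64.8), and the other 5 were under 20 CPM in both. In cycling microglia Lmnb1 (12.2) and Lmnb2 (5.79), genes of the nuclear lamina, were the filament genes called, and 2 of 6 cytoskeletal genes were higher, Tagln2 (4.03) and Ezr (1.63). Lmnb1, Lmnb2 and Ezr passed 20 CPM only through the cycling cells, so their being higher was fixed by the limit. In the mitosis gate Lmnb1 (12.6) and Lmnb2 (6.17), and in the Lpl-Fam20c gate Lmnb1 (2.28), were higher, again passing only through the gate. In the mitosis gate, where the call took in 17% of genes as higher and 10.5% as lower, 4 of 9 cytoskeletal genes were higher. They were Tmsb10 (3.94), Tagln2 (3.82), Anxa5 (1.53) and Ezr (2.13), the last passing only through the gate. With own sequences 6 of 9 were. In activated microglia 3 of 6 were higher, Crip1 (2.21), Anxa5 (1.81) and Capg (1.66), of which Anxa5 alone was with own sequences. Crip1 and Capg passed 20 CPM only through the activated cells, so their being higher was fixed by the limit. The Lpl-Fam20c gate, where 6.79% of genes were higher and 7.22% lower, had 5 of 7 higher, and the same 5 were called with own sequences. They were Capg (8.82), Anxa5 (7.08), Crip1 (3.77), Ezr (1.89) and Tagln2 (1.76). Capg, Crip1 and Ezr passed 20 CPM only through the gate, so their being higher was fixed by the limit.

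Of 16 genes whose products work with Tspo in cholesterol and porphyrin handling, 13 passed in recruited cells. Dbi, the gene of an acyl-CoA binding protein that is a ligand of Tspo, was higher at 307 against 47.4 CPM (ratio 6.47), and Stard3 (0.49), Fech (0.62) and Ppox (0.28) were lower. In cycling microglia 13 passed, Vdac3, a channel of the outer mitochondrial membrane, was higher (1.55), and Cyp27a1 was lower (0.57). Dbi was at 152 CPM in the mitosis gate, a ratio of 3.22, where Ppox was lower (0.52). In activated microglia none of 13 was called, and in the Lpl-Fam20c gate Dbi was higher (1.79), which was not called with own sequences.

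Across the 15 cell groups that do not overlap, the members themselves ran together in part. Pearson's r of log2(CPM + 10) was 0.94 between Lgals3 and Vim, 0.86 between Vim and Tspo, and 0.71 between Lgals3bp and Lgals9, while Lgals3 and Lgals9 ran in opposite directions (r = -0.75). The groups share libraries and differ in depth, so these values are a description. These r values and those below are over all cells, and none was computed with own sequences. The Lgals3bp profile changed with the barcodes kept. It was at 531 CPM in Apoe-Spp1 phagocytes and 408 CPM in the Lpl-Fam20c gate over all cells, but at 117 and 182 CPM with own sequences. The genes most like Lgals1 were Nme1 (0.96), Rpl7 (0.95) and Rpl8 (0.95). Those most like Lgals3 were Capg (0.97), Txndc17 (0.96) and Rab7 (0.96), and those most like Vim were Arf5 (0.97), Sec61b (0.96) and Cytip (0.96). Lgals3bp was nearest to Axl (0.96), Chst1 (0.92) and Tmem104 (0.92), and Tspo to H2afj (0.93), Fau (0.92) and Emilin2 (0.92). For Lgals9 they were Ranbp2 (0.94), Il21r (0.93) and Gm26522 (0.93). Lgals8 had the weakest likeness, with Casp1 (0.77), Chmp1a (0.76) and Pold4 (0.73).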

How the data were processed

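Single cell suspensions from 6 mice were sorted for CD45+ cells and made into Chromium 3′ v2 libraries. The authors aligned and counted reads with Cell Ranger (3.1.0 in the matrix header) on mm10 and pooled the libraries. The deposited values are UMI counts per gene and barcode, and 0 other columns of per-sample values were found. Reads of the human graft were counted against the mouse genome only. Seurat 3.1.5 is named in the submitters' processing notes.

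The filters were those of the study. Gates needed at least 3 marker genes of a list, and 2 for choroid plexus. Recruited gates also needed under 1% of UMIs from a short list of microglial genes, whose members are not reported here, and the monocyte gate needed Ly6c2 and no Cd209a. Ccl2 and Ccl12 had to reach 1% of UMIs together. Recruited, cycling and activated cells were compared with resting microglia by summed counts. With 1 pooled sample no test was run. Members, lists and gates were chosen with earlier results of these data known. By rule every member is named in every group, with the 3 genes most like each member by Pearson's r. List genes are named when called in recruited, cycling and activated cells and the mitosis and Lpl-Fam20c gates, and calls in other gates are not given. A doublet caller, Scrublet in scanpy 1.11.5, marked almost no cells and was not used to remove any, so the highest 5% of its scores were left out as an alternative. Other alternatives changed gates, filters, scaling, suffixes and shared barcode sequences. The computation was tested on simulated data. Python 3.11.15, numpy 2.4.6, scipy 1.17.1 and pandas 2.3.3 were used. Depth is given in the report, and intervals cover counting error only.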

Additional observations from a re-analysis of the deposited data

Results flagged for a closer look

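In 8 of 91 sets of suffix values (8.79%) the highest or lowest suffix stood apart from the rest by Dixon's criterion, where chance gives about 1 in 20. The suffixes share barcode sequences and are not replicates of a group.

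Lgals3 in the Lpl-Fam20c gate was highest in suffix 3 at 461 CPM, with the next suffix at 242 CPM, and Lgals3bp in the same gate was lowest in suffix 3 at 237 CPM, with the next at 378 CPM. That suffix held 39 cells of the gate. Vim stood apart in suffix 6 in resting microglia, at 11.6 CPM against 5.91 CPM in the next, and in Apoe-Spp1 phagocytes, at 494 CPM against 183 CPM. Lgals9 in the Ccl2-Ccl12 gate was lowest in suffix 2 at 145 CPM, against 159.7 CPM in the next. The others rested on few UMIs. Vim in the S phase and mitosis gates together was highest in suffix 4 at 57.5 CPM (9 UMIs), Lgals3 in the same cells was highest in suffix 6 at 8.00 CPM (1 UMI), and Lgals8 in choroid plexus-gated cells was highest in suffix 4 at 98.1 CPM (5 UMIs).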

How the results depend on the processing

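No paired analysis was possible because the labels give the barcode suffixes no replicate number and no result comes from a test. None of the 58 calls of a member in a group was replaced by a call in the other direction under the alternatives run, and 49 (with 1 more gene in every gate) to 58 of them were made again. The ratios themselves were less stable. Of 105 ratios, 43 left their main interval with the median of the ratios within suffixes, and 40 with 1 fewer gene in every gate. With own sequences 39 did, with the mean of per-cell CPM 28, and with a mitochondrial limit of 10% 0. Alternatives chosen after seeing the data kept own barcode sequences (56 of 58 made again), 1 barcode per sequence (56 of 58) or microglia with no UMI of a recruited gate list (29 of 35). In recruited cells the number called lower, 1, was 2 at a microglial RNA limit of 3% and ranged from 1 to 2 when a suffix was left out, with Lgals9 added without suffix 2. With no such limit the Lgals3bp ratio was 0.63 and it was not called. In cycling microglia the number called higher, 2, was 0 with 1 more gene in every gate, 4 with no upper limit on genes per cell (Lgals3 and Vim added), 1 for cells past no activated gate and 1 for microglia with no UMI of a recruited gate list, Lgals1 in both. The number called lower there, 1, was 0 with 1 fewer gene in every gate. In activated microglia no count of called members moved. The ratio of 1 called member crossed 1: Lgals3 in S phase and mitosis was at 0.23 on 1 UMI, and at 1.48 and not called with no upper limit on genes. Without the 50 CPM limit the share of all genes called higher was 12.2% in recruited, 6.81% in cycling and 2.34% in activated cells. The causes were not tested. Depth limits Vim and Lgals3 in microglial gates, where levels rest on as few as 1 UMI.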
